A study of Mus musculus with 6 samples.

Results

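Interferon receptors and their JAK kinases were followed through 8 genes of the 22475 in the deposited table. They were chosen by name: Ifnar1 and Ifnar2, the chains of the type I interferon receptor, Ifngr1 and Ifngr2, the chains of the interferon-gamma receptor, Il10rb, a chain that several class II cytokine receptors share, and the kinases Jak1, Jak2 and Tyk2. RNA was sequenced from Lin- cKit+ Sca1+ cells, a sorted fraction of mouse bone marrow that holds the haematopoietic stem cells. The KO group was homozygous both for FLT3-ITD, a duplication within the Flt3 gene that leaves this growth factor receptor switched on, and for a deletion of miR-155. The control group was homozygous for FLT3-ITD with wild type miR-155, so both groups carried the active FLT3. Each group had 3 libraries, each the pooled RNA of 3 mice, and the p-values therefore measure the spread between pools. The sources used here give neither the age of the mice nor how the deletion was made.

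Interferons signal through paired receptor chains, each of which holds a JAK kinase on its inner tail. Interferon-alpha and interferon-beta bring IFNAR1, which carries TYK2, together with IFNAR2, which carries JAK1. Interferon-gamma binds IFNGR1, which carries JAK1, and recruits IFNGR2, which carries JAK2. The kinases then phosphorylate STAT proteins, which move to the nucleus and switch on interferon-stimulated genes. IL10RB carries TYK2 and is the second chain of the receptors for interleukin-10, interleukin-22 and interferon-lambda. JAK2 also serves the erythropoietin, thrombopoietin and granulocyte-macrophage colony-stimulating factor receptors. In the marrow, interferons are known to drive resting haematopoietic stem cells into division.

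The microRNA that the KO group lacked and its matches in the members' 3' UTRs are shown because a match is what could tie miR-155 to a member directly. In each line below, capitals mark the seed (bases 2 to 8) in the microRNA. In the sites they mark the bases that pair with it and, in the Ifngr2 upstream site, also the last A, which lies opposite base 1 and outside the seed. The mature miR-155-5p is given 5′ to 3′ as RNA, from the RefSeq annotation of GRCm38.p6 (chr16:84714143-84714165, plus strand). The 3 sites are given as DNA of the sense strand of the longest GENCODE M21 3' UTR of the gene (GRCm38, plus strand).
miR-155-5p: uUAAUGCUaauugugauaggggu
Ifngr1 site, chr10:19610176-19610202: ttttttatggAGCATTActtacgattt
Ifngr2 upstream site, chr16:91564520-91564546: aggggttggggGCATTAAgggttaaaa
Ifngr2 downstream site, chr16:91565109-91565135: tctttaccattGCATTAccataacaac
Ifngr1, a gene reported elsewhere as a miR-155 target in mouse T helper cells, held 1 match to all 7 seed bases, AGCATTA, in a 3' UTR of 541 bases. That string occurred in the 3' UTR of 9.37% of 11723 tested genes with an annotated 3' UTR. Ifngr2 held 1 match to 6 seed bases followed by an A, GCATTAA, which occurred in 8.68% of those genes, and 1 match to GCATTA alone. GCATTA, alone or within a longer match, occurred in 21.8% of those genes. The longest 3' UTRs of Ifnar1 (2030 bases), Ifnar2 (1622), Il10rb (711), Jak1 (1128), Jak2 (1232) and Tyk2 (980) held none of these strings. No member held the match of 8 bases, AGCATTAA, which occurred in 3.37%. A match is a description of the sequence and not a measured site.

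All 8 members were expressed in every library. The authors' FPKM scale (fragments per kilobase, scaled to library depth) allows levels of different genes to be compared as far as the lengths used hold. On it Ifngr1 had the highest mean over the 6 libraries, 101 FPKM, with a range of 84.2 to 137 FPKM. Jak2 followed with a mean of 62.3 FPKM and Ifnar2 with 52.2 FPKM. Jak1 (33.2 FPKM), Tyk2 (33.1 FPKM) and Ifnar1 (29.5 FPKM) formed a middle group. Il10rb (21.4 FPKM) and Ifngr2 (19.0 FPKM) were the lowest of the 8. In CPM, counts scaled to library size and not to length, the upper part of the order was another. The means were 315 CPM for Jak2, 289 for Ifngr1, 240 for Jak1, 174 for Ifnar1 and for Ifnar2, and 154 for Tyk2. Il10rb (81.7 CPM) and Ifngr2 (63.4 CPM) were again the lowest.

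Some neighbours in the FPKM order were separated in all libraries and others were not, with all levels of this comparison in FPKM. The level of Ifngr1 was 1.47 to 1.82 times that of Jak2 within each library, and the ranges of the 2 genes did not overlap. Jak2 exceeded Ifnar2 in 6 of 6 libraries, by 1.08 to 1.46 times, although their ranges overlapped. Ifnar2 stood above Jak1 in 6 of 6 libraries without overlap, by 1.30 to 2.04 times. Jak1 and Tyk2 could not be ordered, since Jak1 was the higher in 4 libraries and Tyk2 in the others. Tyk2 exceeded Ifnar1 in 5 of 6 libraries with overlapping ranges, and Ifnar1 exceeded Il10rb in 6 of 6 without overlap. Il10rb exceeded Ifngr2 in 5 of 6 libraries.

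**Figure D1:**
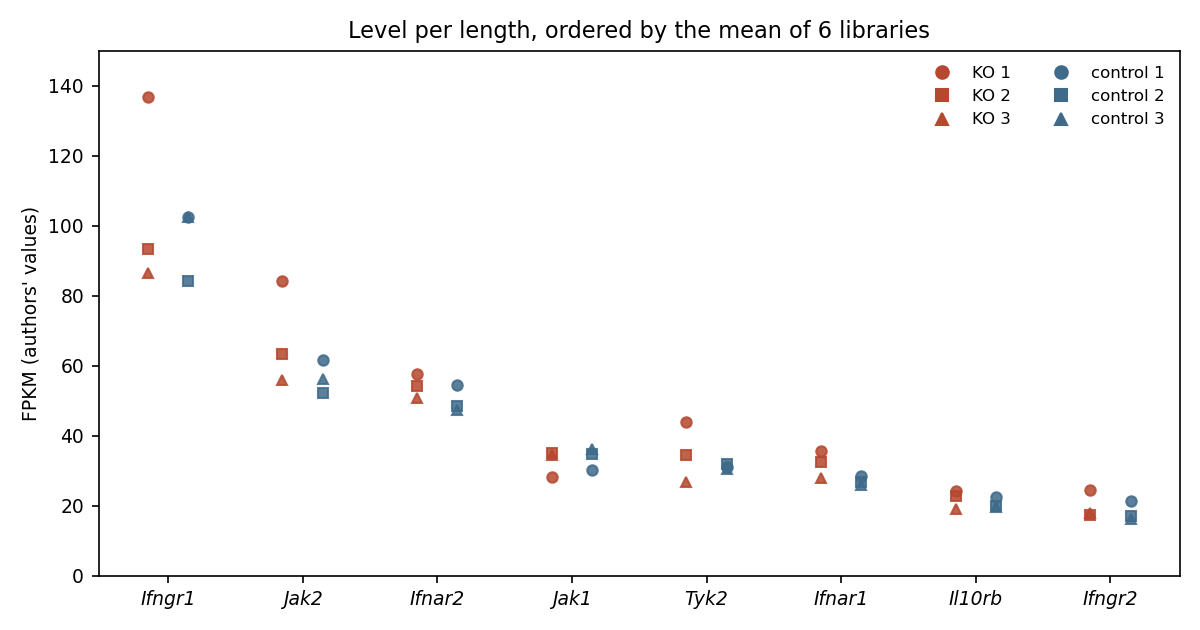
Level of each gene in FPKM, as deposited by the authors, with 1 symbol per library, KO libraries left of control libraries and genes ordered by the mean of the 6 libraries. Ifngr1 lies above all others (84.2 to 137 FPKM), and Il10rb and Ifngr2 lie lowest.

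Within the type I and type II receptors the chains were unequal in FPKM. The FPKM ratio of Ifnar1 to Ifnar2 was 0.615, 0.600 and 0.547 in the KO libraries and 0.522, 0.552 and 0.550 in the control libraries. The ratio of Ifngr1 to Ifngr2 was 5.60, 5.39 and 4.84 in the KO libraries and 4.80, 4.97 and 6.32 in the control libraries. On the FPKM scale Ifnar2 thus exceeded Ifnar1, and the ligand-binding chain Ifngr1 exceeded Ifngr2, in all 6 libraries. In CPM, which is not divided by length, Ifnar1 and Ifnar2 were alike, each with a mean of 174 CPM. Their order in FPKM therefore rests on the lengths that the authors used. The counts of the 3' part of Ifnar2 are also uncertain, for a reason of position given with the chromosome 16 cluster. The ratio of the kinases Jak1 and Tyk2 was 0.645, 1.01 and 1.28 in the KO libraries and 0.975, 1.09 and 1.19 in the control libraries. The groups overlapped for each of the 3 ratios, and their mean log2 values differed (KO minus control) by 0.12 for Ifnar1 to Ifnar2, -0.02 for Ifngr1 to Ifngr2 and -0.20 for Jak1 to Tyk2. Two-sided exact permutation tests gave p of 0.3, 0.9 and 0.7 (each 0.9 after adjustment over the 3 ratios), where the smallest p that 3 against 3 allows is 0.1.

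The groups were compared to find RNA levels that differ in FLT3-ITD cells when miR-155 is missing. None of the 8 members passed the threshold. The test was the quasi-likelihood F test of edgeR, adjusted by the Benjamini-Hochberg method over the 13217 genes tested at a threshold of 0.05, in which 0.159% of genes were called, 0.0151% as higher and 0.144% as lower in KO. Each member had an adjusted p of 0.9995 in edgeR, and none had an unadjusted p under 0.05, as 3.90% of all genes did. DESeq2, which called 0.845% of its genes, and limma-voom, which called 0.129%, also called 0 of the 8. In the authors' deposited table all 8 had an adjusted p of 0.9999, while 0.639% of the genes with a p there were under 0.05. With the replicate number as a block the count remained 0 of 8, while 1.36% of all genes were called. Levels that follow are in CPM, counts scaled to the TMM-normalized size of each library, and log2 fold changes are KO over control.

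Ifnar1 had the smallest p of the members. Its level was 219, 186 and 161 CPM in KO replicates 1, 2 and 3, against 172, 155 and 152 CPM in the control replicates. KO replicates 1 and 2 lay above every control library, and KO replicate 3 lay among them. The log2 fold change was 0.24 ± 0.12 (SE, n = 3 per group), a fold of 1.18 with a 95% interval of 0.972 to 1.44, and the KO library was the higher within each of the 3 replicate numbers. The unadjusted p was 0.0828 in edgeR, or 0.0158 with the replicate block, where 9.37% of all genes had an unadjusted p under 0.05. Blocked, the adjusted p of Ifnar1 was 0.348.

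Ifnar2, which binds the ligand with high affinity, had 201, 176 and 167 CPM in the KO libraries and 186, 159 and 156 CPM in the control libraries. The groups overlapped, and the KO library was the higher by 0.11, 0.15 and 0.09 on the log2 scale within numbers 1, 2 and 3. On the log2 scale the fold change was 0.12 ± 0.11 (SE), with an interval of -0.13 to 0.36.

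For both chains of the interferon-gamma receptor, as for every other member, the spread inside the KO group was wider than the difference between groups. Ifngr1 had 408, 259 and 243 CPM in the KO libraries and 299, 236 and 290 CPM in the control libraries. KO replicate 1 was the highest library, while KO replicates 2 and 3 lay within the control range. The log2 fold change was 0.14 ± 0.20 (SE), with an interval of -0.34 to 0.62, and without KO replicate 1 it was -0.13. So for the one member with a match to all 7 seed bases, the data allow a KO level from 0.791 to 1.54 times that of the control.

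Ifngr2 had 84.9, 56.0 and 58.4 CPM in the KO libraries and 72.6, 55.4 and 53.4 CPM in the control libraries. The libraries of number 1 were the highest of their groups, and the other 4 lay close together. The log2 fold change was 0.13 ± 0.19 (SE), or -0.08 without KO replicate 1.

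Il10rb had 96.7, 84.6 and 71.9 CPM in the KO libraries and 87.6, 75.1 and 74.0 CPM in the control libraries. The lowest and the highest of the 6 libraries were both KO libraries. For Il10rb the log2 fold change was 0.10 ± 0.13 (SE), and its counts are uncertain for a reason of position given with the chromosome 16 cluster. Its partner in the interleukin-10 receptor, Il10ra, had 313, 208 and 185 CPM in the KO libraries and 199, 150 and 169 CPM in the control libraries. Il10ra did not pass either, at a log2 fold change of 0.45 ± 0.20 (SE; edgeR adjusted p 0.9995).

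Among the kinases, Jak2 had the larger difference between group means and Jak1 the smaller. Jak2 had 444, 311 and 277 CPM in the KO libraries and 318, 259 and 281 CPM in the control libraries. KO replicate 1 stood far above the rest, and the other KO libraries overlapped with the control libraries. The log2 fold change was 0.27 ± 0.18 (SE), a fold of 1.20 with an interval of 0.900 to 1.61. With the replicate block Jak2 had an unadjusted p of 0.0480 and an adjusted p of 0.531 in edgeR, and without KO replicate 1 its log2 fold change was 0.05.

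Tyk2 had 212, 156 and 122 CPM in the KO libraries and 147, 146 and 140 CPM in the control libraries. The control libraries agreed closely, with a mean of 144 ± 4.13 CPM (SD, n = 3), and the KO libraries lay on both sides of them. The log2 fold change was 0.18 ± 0.18 (SE), or -0.05 without KO replicate 1.

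Jak1 went the other way. It had 214, 246 and 245 CPM in the KO libraries and 225, 249 and 261 CPM in the control libraries, and the groups overlapped. KO replicate 1 was its lowest library, where the other 7 members had their highest. For Jak1 the log2 fold change was -0.06 ± 0.09 (SE; 95% interval -0.28 to 0.16), and the KO library was the lower within each of the 3 numbers.

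**Figure D2:**
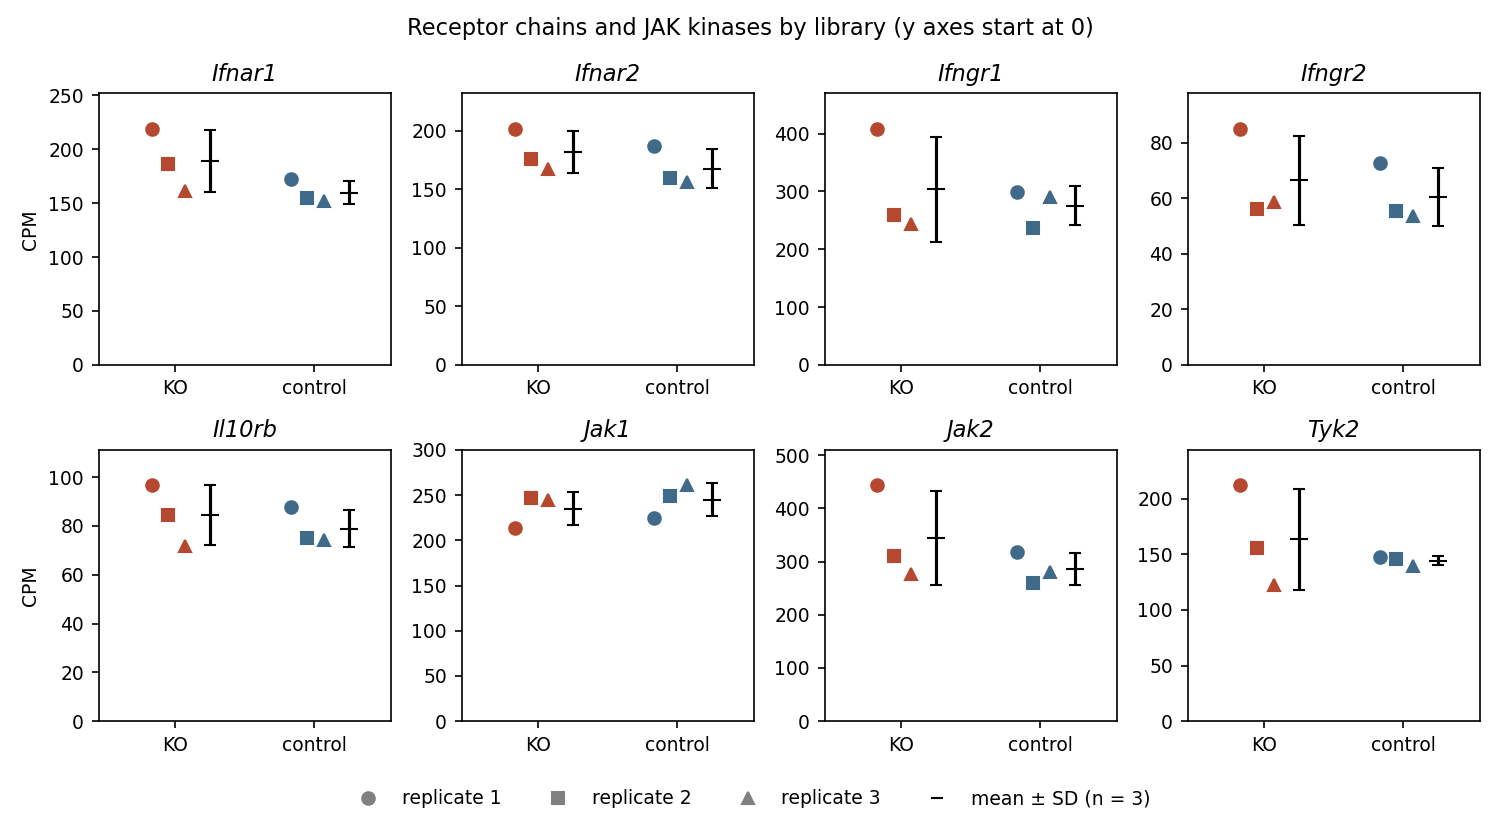
CPM of each gene by library, KO left and control right, with symbols for the replicate number and bars for the mean ± SD of 3 libraries. KO replicate 1 is the highest of the 6 libraries in all panels except that of Jak1, where it is the lowest at 214 CPM.

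Over the 8 members the median log2 fold change was 0.14, against 0.001 over all genes tested, and 7 of 8 were positive, against 50.2% of all genes. The groups overlapped for all 8 members, whereas 8.22% of all genes had no overlap, 3.43% with every KO library the higher and 4.79% with every KO library the lower. Ifnar1, Ifnar2 and Ifngr2 were higher in the KO library within all 3 replicate numbers, as were 15.1% of all genes, and Jak1 was lower within all 3, as were 16.5%. The KO value of the other 4, Ifngr1, Il10rb, Jak2 and Tyk2, was lower within number 3 and higher within numbers 1 and 2.

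**Figure D3:**
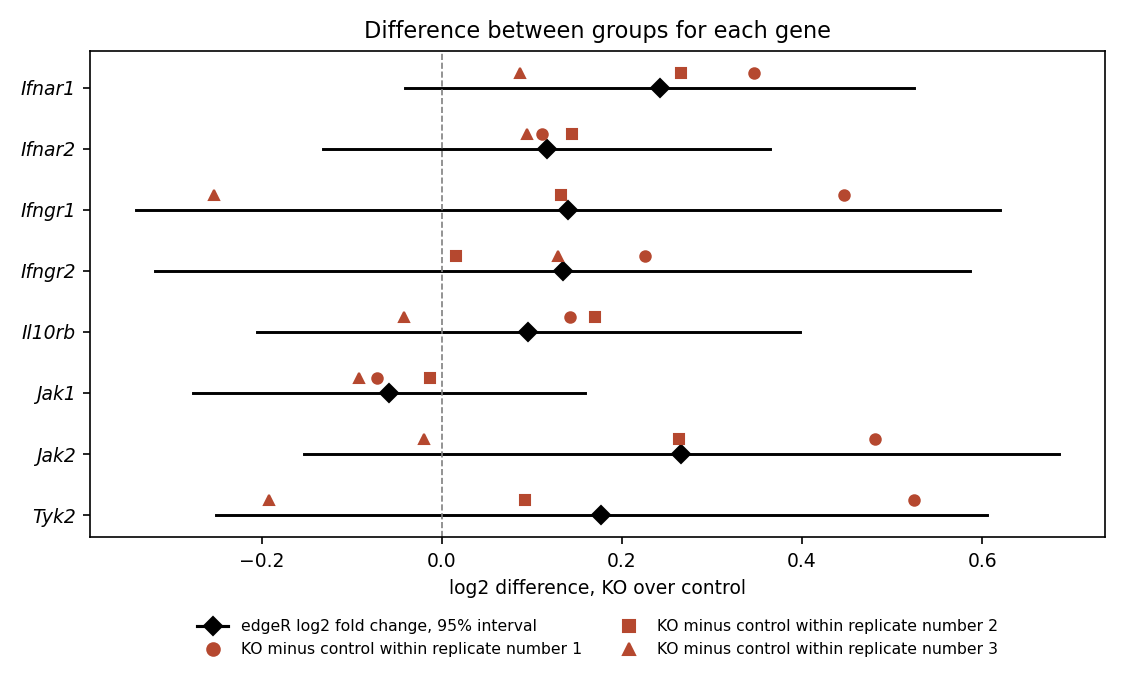
Log2 difference of KO over control for each gene, with the edgeR estimate and its 95% interval in black and the difference within each replicate number in red. All 8 intervals include 0, and the differences within number 3 lie between -0.25 and 0.13.

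The members other than Jak1 had similar profiles across the libraries. In KO replicate 1, the 7 members other than Jak1 lay 0.21 to 0.52 above their own 6-library mean on the log2 scale, and Jak1 lay 0.16 below its mean. KO replicate 1 was the highest library for 7 of 8 members, and for 25.9% of all genes tested. Over the 6 libraries Ifnar1 and Jak2 had a Pearson r of 0.95, Ifnar2 and Il10rb of 0.94 and Ifngr1 and Jak2 of 0.93. Jak1 was negatively correlated with each of the others, with r from -0.98 for Ifngr2 to -0.72 for Tyk2. These r describe 6 libraries that share groups, depth and replicate numbers. The 5 genes whose log2 CPM was most like that of Ifnar1 over the 6 libraries were BC147527, Helz2, ENSMUSG00000071286, Sowahc and Cd40, with Pearson r of 0.992 to 0.995. ENSMUSG00000071286 and Sowahc had equal values in each library, so their reads cannot be told apart, and none of the 5 passed the threshold.

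Markers of other cells also differed between libraries, and macrophage markers were highest in control replicate 1, not in KO replicate 1. The summed level of 12 macrophage markers was 695, 165 and 223 CPM in KO replicates 1, 2 and 3 and 923, 127 and 157 CPM in the control replicates, so both libraries of number 1 stood apart. Of those markers C1qa, a complement component of resident macrophages, had 39.8, 3.46 and 8.27 CPM in the KO libraries and 69.0, 3.79 and 6.48 CPM in the control libraries, and Vsig4 was at 0 in 5 of 6 libraries. The median deviation of 10 stem and progenitor markers was -0.67 and -0.40 on the log2 scale in KO replicate 1 and control replicate 1 and between 0.17 and 0.34 in the other 4 libraries. The summed level of 9 dendritic cell markers was 1232, 688 and 626 CPM in the KO libraries and 778, 712 and 744 CPM in the control libraries, with KO replicate 1 the highest, as for most members. The part of these cells in the members' values was not tested, and in pooled RNA fewer cells of a type and less RNA per cell cannot be told apart. Without KO replicate 1, 4 of 8 members were positive, against 51.5% of all genes, and 0 passed, against 0.118%. Without both libraries of number 1, 5 of 8 members were positive, against 50.1% of all genes, and 0 passed, against 0.202%. Ifnar1 was then at 0.18, Jak2 at 0.13, Ifngr1 at -0.07 and Tyk2 at -0.04 on the log2 scale.

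**Figure D4:**
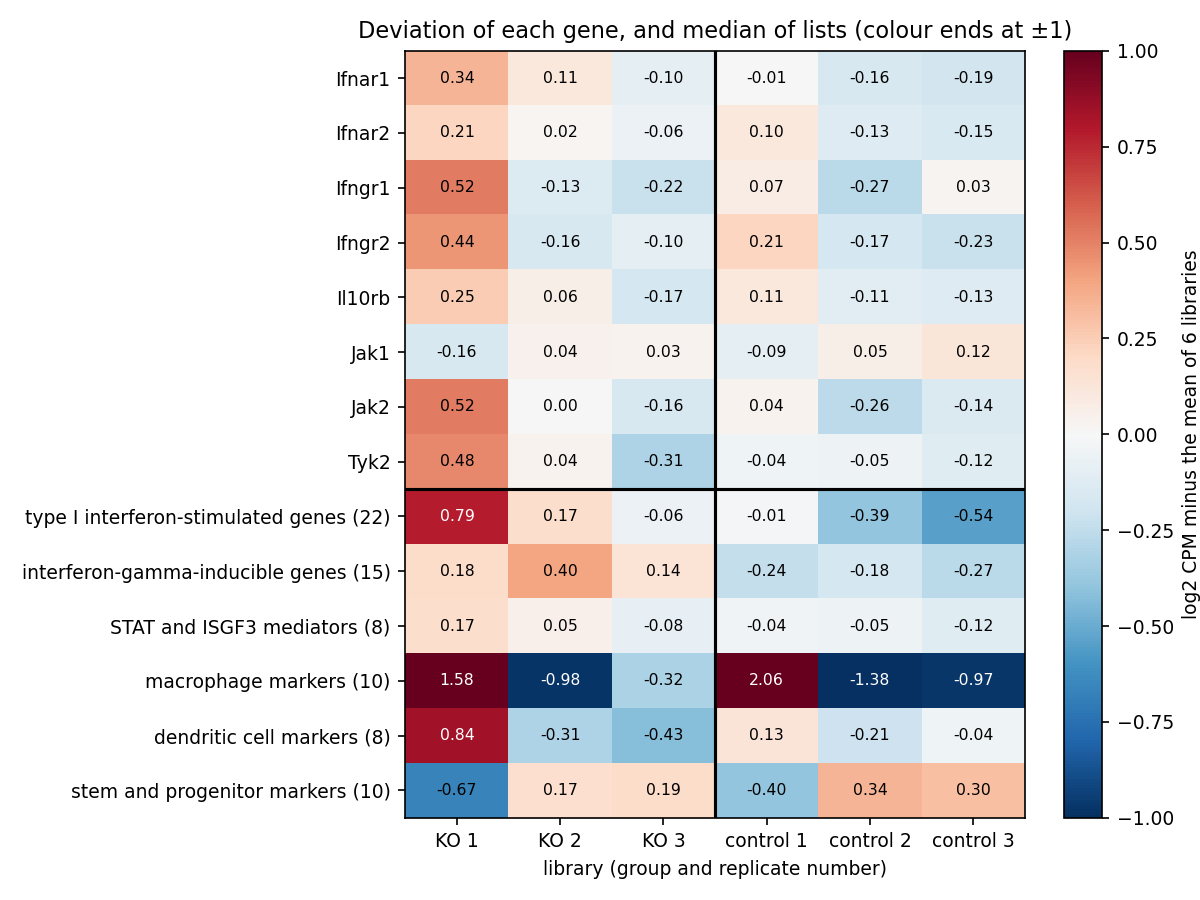
Log2 CPM of each gene minus its mean over the 6 libraries, and below the line the median of the same deviation for gene lists (number of genes in brackets), with KO libraries left of control libraries. In the column of KO replicate 1, 7 genes (0.21 to 0.52) and every list but the stem and progenitor markers are above 0. Jak1 and the stem and progenitor markers are below 0 there.

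Of the genes that encode the proteins of the gate, Kit had 243 to 348 CPM in KO and 242 to 387 CPM in control libraries, and Ly6a, which encodes Sca1, had 110 to 128 CPM in KO and 105 to 122 CPM in control libraries. The transcript at the miR-155 host locus, Gm26667 (ENSMUSG00000097418), had 4, 14 and 4 counts in the KO and 33, 48 and 36 in the control libraries, with a log2 fold change of -2.14 ± 0.46 (SE; edgeR adjusted p 0.274, or 0.0377 with the replicate block, where 1.04% of all genes were called as lower). The summed levels of plasma cell markers (7 measured, 671 to 1734 CPM in KO and 3050 to 4407 CPM in control libraries) and neutrophil markers (9 measured, 330 to 506 CPM in KO and 591 to 737 CPM in control libraries) were lower in every KO library. So were those of T and NK cell markers (8 measured, 51.2 to 81.6 CPM in KO and 92.4 to 94.8 CPM in control libraries). The highest gene of that list, Nkg7, overlapped between groups (32.3 to 61.9 CPM in KO and 46.4 to 61.4 CPM in control libraries). So did the others of the list except Cd2, Cd28 and Ctla4, which were lower in every KO library. B cell markers (6 measured, 33.8 to 50.3 CPM in KO and 44.9 to 72.1 CPM in control libraries) and erythroid markers (7 measured, 8.20 to 44.0 CPM in KO and 12.2 to 63.3 CPM in control libraries) overlapped. Library totals were 6843129 to 7601317 counts in KO and 8136914 to 9443615 in control libraries. The smallest count of a member was that of Ifngr2 in KO replicate 3, 424 counts, with an exact 95% Poisson interval of 385 to 466 that covers counting error only.

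The receptor chains other than Ifngr1 lie together. Ifnar2 (chr16:91372783-91405589), Il10rb (chr16:91406164-91425834), Ifnar1 (chr16:91485238-91507441) and Ifngr2 (chr16:91547072-91565623) are protein-coding genes on the plus strand of mouse chromosome 16 in GENCODE M21 on GRCm38, the same assembly as the mm10 build of the submitters. Together they span 193 kb, and the cluster begins 6.66 Mb from Mir155 on the same chromosome. Ifngr1 (chr10:19591949-19610229, plus strand), Jak2 (chr19:29251828-29313080, plus strand), Jak1 (chr4:101152367-101265282, minus strand) and Tyk2 (chr9:21104068-21131243, minus strand) lie elsewhere.

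The other genes tested within 100 kb of the cluster did not pass either. Gm21970, annotated as a protein-coding gene that overlaps the end of Ifnar2 and most of Il10rb on the same strand (chr16:91391721-91419451), had 87.2, 72.8 and 66.3 CPM in the KO libraries and 74.4, 63.7 and 63.4 CPM in the control libraries. As for Il10rb, the library of number 1 was the highest of each group. The sources used here do not say how shared reads were counted, so the counts of Il10rb and of the 3' part of Ifnar2 are uncertain. Tmem50b, just beyond Ifngr2, had a log2 fold change of 0.03 ± 0.23 (SE), and the splicing cofactor Son one of 0.01 ± 0.08. Gart, an enzyme of purine synthesis, was at -0.11 ± 0.14, Dnajc28 at -0.06 ± 0.28, A930006K02Rik at 0.34 ± 0.36 and Gm15964 at 0.28 ± 0.40. The edgeR adjusted p was 0.9995 for each of the 7. The 25 genes tested on chromosome 16 from Mir155 to the end of Ifngr2 included the 4 members of the cluster. Their median log2 fold change was 0.10, the value of Il10rb itself, and 72.0% were positive. On the whole chromosome 51.2% of genes were positive and on the others 50.2%, with medians of 0.003 and 0.001.

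**Figure D5:**
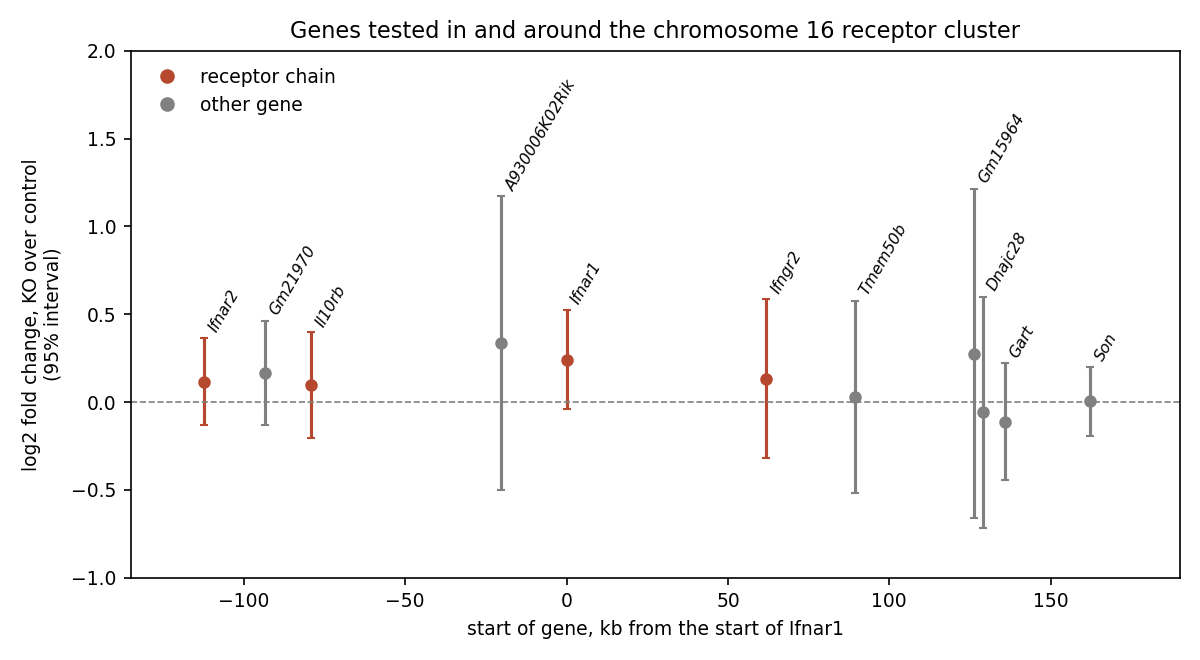
Log2 fold change of KO over control with its 95% interval for the 11 genes tested in and around the receptor cluster. The horizontal axis gives the lower coordinate of each gene in kb from the start of Ifnar1. For Tmem50b, Dnajc28 and Gart, on the minus strand, that is the 3' end. All intervals include 0, and the 4 receptor chains lie between 0.10 and 0.24.

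The promoters of the type I receptor chains are shown because both hold a match to TTCNNNGAA, the gamma-activated sequence that STAT dimers bind. Each runs from 250 bases before to 50 bases after the RefSeq start of the gene (GRCm38.p6, plus strand, 5′ to 3′), and capitals mark the match.
Ifnar1 promoter, chr16:91484965-91485264: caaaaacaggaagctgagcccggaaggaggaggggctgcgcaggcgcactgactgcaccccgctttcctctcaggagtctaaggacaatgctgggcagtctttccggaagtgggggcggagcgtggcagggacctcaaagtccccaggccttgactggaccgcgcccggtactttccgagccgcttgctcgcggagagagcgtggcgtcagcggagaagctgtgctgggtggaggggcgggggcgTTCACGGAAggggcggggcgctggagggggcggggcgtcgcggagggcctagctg
Ifnar2 promoter, chr16:91372533-91372832: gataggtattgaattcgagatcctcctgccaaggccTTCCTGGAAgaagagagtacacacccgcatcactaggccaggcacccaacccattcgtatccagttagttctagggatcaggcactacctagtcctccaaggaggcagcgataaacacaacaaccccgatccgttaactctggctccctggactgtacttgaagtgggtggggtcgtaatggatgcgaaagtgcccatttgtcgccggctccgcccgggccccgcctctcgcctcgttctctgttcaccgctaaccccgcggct
The match occurred in 8.30% of 32851 promoter windows of the same length, searched on both strands, and in 2 of the 7 members found there, all but Il10rb. A form of the interferon-stimulated response element, TTTC repeated after 2 bases of any kind, occurred in 3.44% of all windows and in none of the 7. The GC box GGGCGG occurred in 35.7% of all windows and in 7 of 7 members, and the ETS core CCGGAA in 14.9% of all and in Ifnar1 only among the 7. In the Ifnar1 window 2 of the 3 ETS matches overlapped each other on opposite strands, and the gamma-activated match of either gene overlapped no other match. The GC content of the 7 windows was 57.0% for Ifnar2 to 81.0% for Jak2, and the median over all windows was 52.7%.

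Ligands of these receptors were close to the limit of detection. Ifng, which encodes interferon-gamma, had 6, 16 and 8 counts in the KO and 6, 19 and 10 in the control libraries, and Il10 had 6, 6 and 14 against 19, 14 and 8. The interferon-beta gene Ifnb1 had 1, 1 and 0 counts in the KO libraries and 0 in each control library. Ifna2 had 2, 1 and 1 counts in the KO libraries and 0 in each control library, and Ifna4, Ifnz and Il19 had at most 1 count in any library. A count of 0 allows up to 3 counts, or 0.318 to 0.438 CPM at these depths. Only Il10 was tested among the 7 ligand genes listed, and it did not pass, at a log2 fold change of -0.37 ± 0.47 (SE; edgeR adjusted p 0.9995).

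Other class II cytokine receptors, apart from Il10ra, were low. Ifnlr1, the chain that pairs with IL10RB in the interferon-lambda receptor, averaged 3.70 ± 1.72 CPM in KO and 3.61 ± 0.112 CPM in control libraries (SD, n = 3). Among the 7 measured, 4 were tested and 0 rose or fell. Il20rb was at -0.60 ± 0.44 and Il22ra2 at 0.09 ± 0.41 (log2 fold change ± SE), both at counts of 19 or fewer per library.

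Of the receptors that share JAK1, JAK2 or TYK2, together with Jak3, 28 of 31 were tested and 0 rose or fell. Their median log2 fold change was 0.09, or 0.11 without KO replicate 1, where that of the members was 0.001. The smallest p belonged to Csf2rb, the common beta chain of the interleukin-3, interleukin-5 and granulocyte-macrophage colony-stimulating factor receptors, which signals through JAK2. Csf2rb had 163, 159 and 157 CPM in the KO libraries and 133, 140 and 135 CPM in the control libraries. The groups did not overlap and the replicates lay close together, but its log2 fold change of 0.23 ± 0.07 (SE) had an adjusted p of 0.644 in edgeR. Csf2rb2, the interleukin-3-specific beta chain of the mouse (0.52 ± 0.19), and Il12rb2, a chain of the interleukin-12 receptor (0.39 ± 0.14), did not pass, with adjusted p of 0.9995. Csf2rb and Csf2rb2 are close copies, so their counts could share reads.

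Downstream of the kinases, 8 STAT and ISGF3 genes were tested and 0 rose or fell, with a median log2 fold change of 0.12. Stat2 was at 0.39 ± 0.24 and Irf9, the DNA-binding subunit of ISGF3, at 0.33 ± 0.17 (log2 fold change ± SE), each with an edgeR adjusted p of 0.9995. Of the 18 inhibitors of these receptors and kinases none passed, and with the replicate block 1 rose, where 0.318% of all genes were called as higher. It was Usp18, a protease of ISG15 that also binds IFNAR2 and dampens its signal, with 92.3, 53.4 and 54.9 CPM in the KO libraries and 50.3, 29.9 and 28.7 CPM in the control libraries. Its log2 fold change was 0.88 ± 0.29 (SE; edgeR adjusted p 0.883) and 0.88 ± 0.08 with the block (adjusted p 0.00314). Usp18 is also counted among the type I interferon-stimulated genes given below that rose with the block. The ubiquitin ligase Cbl (0.29 ± 0.16) and the phosphatase Dusp4 (-0.77 ± 0.52) did not pass, and Dusp4 was low, at 0.613 to 3.15 CPM per library.

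Genes of receptor turnover and trafficking (14 tested) had a median log2 fold change of -0.02, and 0 rose or fell. The kinase Gsk3b was at -0.19 ± 0.08 (SE), Stam2, of the endosomal sorting machinery, at 0.09 ± 0.08, and Stub1, a ubiquitin ligase, at -0.09 ± 0.08, each with an edgeR adjusted p of 0.9995.

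Among the targets of the pathway the log2 fold changes were larger than among its receptors and kinases. Of 15 interferon-gamma-inducible genes tested 2 rose, the chemokine Cxcl10 (1.20 ± 0.13, SE) and the GTPase Iigp1 (0.93 ± 0.10), each with an edgeR adjusted p of 0.0339. These were the only genes called as higher among all genes tested (0.0151%). The list was chosen with earlier results of these data known. Cxcl10 had 27.4, 34.0 and 32.9 CPM in the KO libraries and 13.8, 14.01 and 13.3 CPM in the control libraries. Its KO replicate 1 was the lowest of the KO libraries, unlike that of the 7 members. Gbp6, a guanylate-binding protein, did not pass (1.13 ± 0.25, adjusted p 0.338). All 15 had a positive log2 fold change, with a median of 0.47, against 0.14 for the 8 members and 0.001 for all genes. Of 22 type I interferon-stimulated genes 21 were positive, with a median of 0.68, and 0 passed without the block, while 13 rose with it, where 0.318% of all genes were called as higher. Among them Rsad2 had a blocked log2 fold change of 0.85 ± 0.08 and Oas3 one of 0.70 ± 0.08 (SE; edgeR adjusted p 0.00477 and 0.0115). This type I list also stood highest in KO replicate 1. Its median deviation was 0.79, 0.17 and -0.06 on the log2 scale in KO replicates 1, 2 and 3 and -0.01, -0.39 and -0.54 in the control replicates. Without KO replicate 1 its median log2 fold change was 0.36, with 21 of 22 positive and 0 that passed, and that of the interferon-gamma-inducible list was 0.43, with 14 of 15 positive and 1 that rose. The summed level of dendritic cell markers was highest in the same library, and the part of these cells in the values was not tested. The dendritic cell list shares Bst2 with the type I list, where Bst2 rose with the block. That the members differed less than these genes was not tested.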

How the data were processed

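The authors deposited whole-number counts per gene and library, not normalized, per the file headers and values. The deposited FPKM were the authors' values, proportional to the counts once a gene's and a library's own scale are divided out, and served for levels between genes and for ratios. The deposited log2 fold change and adjusted p-value were the authors' own comparison and are quoted only as such. Novoalign 2.08.01, DESeq2 1.10.1 and mm10 were named, per the submitters' processing notes. How reads were assigned to genes (program, annotation, strand) is not given in the sources used here, so counts of overlapping and antisense genes are uncertain.

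Counts were tested with edgeR 4.0.16 (R 4.3.3) after TMM normalization and filterByExpr (minimum count 10, minimum total 15), with the legacy quasi-likelihood F test and group as the only term, Benjamini-Hochberg adjustment over the 13217 genes left and a threshold of 0.05. Standard errors were derived from the F statistic, and 95% intervals from the t distribution. Alternatives used DESeq2 1.42.0, limma 3.58.1, other filters, size factors and library sizes, a replicate block and left-out libraries. Ratios were tested by exact permutation in scipy 1.17.1. Counting error alone gave 95% Poisson half-widths of 3.64% to 9.64% of a member's count.

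Groups and replicate numbers came from the titles, and the labels do not say what equal numbers share. Deviations from the group means correlated by r = 0.57, 0.53 and 0.22 between libraries of equal number 1, 2 and 3, each over the limit of 0.1 for treating numbers as pairs. Of the unequal pairs KO 2 and control 3 also passed it (r = 0.13), and number 3 had the lowest r of the equal pairs. The pairing comes from these values only. The members, gene lists and tests were chosen with earlier results of these data known. Beside the members, the genes named are those of each list past the threshold (with or without the block, some by count only) or among its 3 smallest p, the neighbours of the cluster, the 5 genes most like Ifnar1 and the host transcript. A gene that this rule names is not reported here. C1qa, Vsig4, Kit, Ly6a, Nkg7, Cd2, Cd28, Ctla4, Ifnlr1 and the ligand genes were named from their lists after their values were seen.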

Additional observations from a re-analysis of the deposited data

How the results depend on the processing

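In none of the 14 alternatives did a member pass the threshold (smallest edgeR adjusted p 0.348, Ifnar1 with the replicate block); without KO replicate 3, 2 members had an unadjusted p under 0.05, as did 6.65% of all genes. Of the 112 member values (8 genes, 14 alternatives) 105 kept their direction and 7 reversed. Without KO replicate 1, Ifngr1 was at -0.127, Ifngr2 at -0.0754, Il10rb at -0.00723, Tyk2 at -0.0498 and Jak1 at 0.00960, so that 4 of 8 members were positive with a median of 0.00118 on the log2 scale. Without both libraries of number 1, Ifngr1 was at -0.0653 and Tyk2 at -0.0368. Leaving out 1 library gave 0.128 to 0.346 for Ifnar1, 0.0404 to 0.204 for Ifnar2, -0.127 to 0.279 for Ifngr1, -0.0754 to 0.290 for Ifngr2, -0.00723 to 0.201 for Il10rb, -0.113 to 0.00960 for Jak1, 0.0453 to 0.402 for Jak2 and -0.0498 to 0.351 for Tyk2. The difference in the log2 ratio of Ifnar1 to Ifnar2 was 0.0817 to 0.167, that of Ifngr1 to Ifngr2 -0.0899 to 0.108 and that of Jak1 to Tyk2 -0.422 to 0.0727. The signs reversed at 0.0447 and 0.108 (Ifngr1 to Ifngr2, without KO replicate 3 and without control replicate 3) and at 0.0727 (Jak1 to Tyk2, without KO replicate 1). The replicate block changed no call of a member. For the ratios it was an exact sign-flip test, with p of 0.5, 1 and 0.5, where 3 pairs allow no p below 0.25, so no ratio could have been called. Over all genes the count of 21 became 180 with the replicate block, 131 with DESeq2, 97 with no filter on low counts, and 0 to 27 when 1 library was left out (0 without control replicate 1 or 3, where 766 and 358 genes had an unadjusted p under 0.05, 8 without KO replicate 2 and 9 without control replicate 2). The cause of these changes was not tested beyond the smaller number of libraries.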

Other observations

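From Mir155 to the end of Ifngr2, 2 of the 25 genes tested passed with the replicate block and not without it, and both were named after their values were seen. Mrpl39, a mitochondrial ribosomal protein gene that lies 0.00341 Mb beyond Mir155, had 32.9, 32.0 and 30.3 CPM in the KO libraries and 48.3, 45.7 and 40.7 CPM in the control libraries. Its blocked log2 fold change was -0.50 ± 0.08 (SE; edgeR adjusted p 0.0467, or 0.228 without the block). Urb1, a nucleolar protein gene 6.04 Mb beyond Mir155, had 93.6, 72.6 and 84.1 CPM in the KO libraries and 66.1, 57.9 and 60.5 CPM in the control libraries, with a blocked log2 fold change of 0.44 ± 0.07 (SE; adjusted p 0.0467, or 0.496 without the block). The groups did not overlap for either gene, as for 8.22% of all genes tested. With the block 9 of 414 genes tested on chromosome 16 passed, and 168 of 12628 on the other chromosomes did (genes with an annotated position). Without it 0 and 20 passed, and the shares were not tested against each other.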
